A study of Oryza sativa with 6 samples.

Results

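Of the rice sodium transporters named HKT, NHX or SOS1, 1 gene could be matched to a probe set by name. It was the class I HKT transporter gene HKT1;5. It was found by searching the gene names and synonyms of the platform annotation and of an NCBI RefSeq gene table for whole names of the form HKT or NHX with a number, or SOS1, and it is 1 of 17905 genes that have a probe set of their own. The gene table lists it as LOC4327757, with the synonyms HKT8 and SKC1, and a single probe set reads it. The table names 7 HKT genes. The other 6, HKT2;1, HKT2;3, HKT2;4, HKT1;1, HKT1;3 and HKT1;4, were matched to no probe set and are not analysed here. No gene was matched under the names NHX or SOS1, so those exchangers are not analysed here either. Of the 57194 rice probe sets, 34663 have no gene in the names used, and whether any of them reads these transporters was not checked.

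HKT proteins are plasma membrane transporters that move sodium, and in some members also potassium, into cells. HKT1;5 is known in rice for drawing sodium out of the xylem sap into the parenchyma cells around the vessels, mainly in roots, which keeps sodium away from the leaves. NHX exchangers load sodium into vacuoles, and SOS1 exports it across the plasma membrane under the control of a calcium sensor and a kinase. DST, the gene mutated in the dst line, encodes a zinc finger protein known to control guard cell aperture through hydrogen peroxide, and its name stands for drought and salt tolerance.

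RNA came from whole shoots of the dst mutant line and of wild-type plants of the japonica cultivar Zhonghua11, with 3 arrays of biological replicates in each group. All plants were 25 days old and came from a growth chamber set to 26 °C during 11 h of light and to 22 °C during 13 h of darkness. The labels state no salt or drought treatment, name no cultivar for the mutant line, and do not say how the dst allele was made or how many plants went into a sample. The transcript of DST itself is not analysed here. The shoot label was set against a list of marker genes. Of 10 green-tissue names, 4 were measured (RBCS, CAB2R, PORA and PORB), with summed signals of 66000 to 81768 in dst and 61274 to 86288 in the wild type. Of 10 root names, 6 were measured (Lsi1, Lsi2, IRT1, NRT2.3, NRAMP5 and SHR1). Their summed signals were 2758 to 3187 in dst and 2396 to 2698 in the wild type. The root sums were higher on each dst array than on any wild-type array, but without SHR1 the sums overlapped between the groups. Lsi1 made up the largest part of the sum on every array. The log2 difference, dst minus wild type, was above 0 for NRT2.3 (1.16), SHR1 (0.90), NRAMP5 (0.33), Lsi2 (0.17) and Lsi1 (0.14). It was below 0 for IRT1 (-0.63). None of the root names bright enough to be tested passed in limma, and NRT2.3 and Lsi2 were too dim to be tested. SHR1 read 249 to 323 in dst and 147 to 160 in the wild type, and the ranges of the other root names overlapped between the groups. Among all tested probe sets, 16.6% had ranges that did not overlap, so 1 such name among 6 is near the share of the whole array. The part of these markers in the values of HKT1;5 was not tested.

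The HKT1;5 probe set was dim in both lines, and its signal did not separate dst from wild type. It read 64.5, 16.5 and 138.5 on the dst arrays, replicates 1 to 3, against 55.6, 73.8 and 71.0 on the wild-type arrays. The dst group held both the lowest and the highest of the 6 values, and all wild-type values lay between them. The mean signal was 73.2 ± 61.5 in dst and 66.8 ± 9.80 in the wild type (SD, n = 3 each). On the log2 scale the order of the means was the other way, at 5.72 ± 1.55 in dst and 6.05 ± 0.22 in the wild type. The sign of the difference in HKT1;5 therefore depended on the scale of averaging, because 1 dst value was low and another high. The signals are array units scaled by the submitters and cannot be read as transcript numbers. In shoot RNA, a difference in the number of cells that express the gene and one in transcript per cell could not be told apart.

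**Figure D1:**
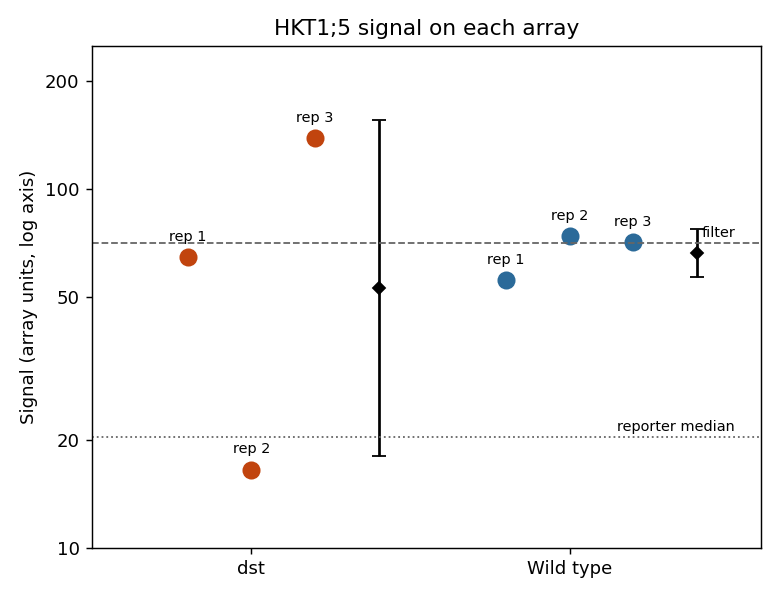
Signal of the HKT1;5 probe set on each array (log axis, array units), with dst arrays at the left and wild-type arrays at the right, and black diamonds for the mean of the log2 values with bars of 1 SD (n = 3). The dst values of 16.5 and 138.5 enclose the wild-type values of 55.6 to 73.8. The dashed line is the filter on mean signal at 70.5 and the dotted line the median of the reporter control probe sets at 20.3.

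The spread of HKT1;5 was much wider among the dst arrays. Its highest signal was 8.39 times its lowest in dst, against 1.33 times in the wild type. Replicate 2 was the lowest dst array and replicate 3 the highest. To see how usual such spreads are at this brightness, the SD of the log2 values was set beside those of the 1000 rice probe sets nearest to it in mean signal. In dst, 93.8% of these had a smaller SD than HKT1;5, with a median SD of 0.73. In the wild type, 7.5% had a smaller SD, with a median of 0.73. Within dst the gene thus varied more than most probe sets of like brightness, and within the wild type less than most, as a description with no test.

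HKT1;5 lay low on the intensity scale of every array but 1. The share of the 57194 rice probe sets with a lower signal was 34.8%, 15.9% and 51.4% on dst arrays 1 to 3, and 31.1%, 39.3% and 38.9% on the wild-type arrays. The array also carries 64 reporter probe sets, made for marker genes used in transgenic plants. Whether each of them lacks a target in rice was not checked. In dst, HKT1;5 was brighter than 44, 23 and 58 of the 64 reporters on arrays 1 to 3. In the wild type it was brighter than 41, 52 and 49. On dst array 2 its signal of 16.5 was below the reporter median of 28.1, and on dst array 3 its 138.5 was well above the median of 19.6. On the wild-type arrays the reporter medians were 31.9, 21.3 and 21.3, each below HKT1;5. Different probe sets bind with different strength, so these ranks place a signal near or away from the background and do not compare amounts of transcript. No detection calls were used. The values do not show that the gene is silent in shoots.

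With a mean log2 signal equal to 59.2 units, HKT1;5 fell under the filter at the 40th percentile of all rice probe sets, 70.5 units. It therefore did not enter the test across 34316 probe sets, in which 0.924% passed an adjusted p of 0.05. With all 57194 rice probe sets in the limma model, the log2 difference of HKT1;5 was -0.33 ± 0.76 (dst minus wild type, SE), with an adjusted p of 0.954 and an unadjusted p of 0.675. In that fit 0.439% of the probe sets passed. The 95% interval ran from -2.03 to 1.37, that is from 4.08-fold lower to 2.59-fold higher in dst. An exact two-sided permutation test of the log2 values over the 6 arrays gave p = 0.8, where 3 against 3 arrays can give no p under 0.1. No difference in HKT1;5 was detectable with these arrays, and the interval is wide enough to hold a change of more than 2-fold in either direction.

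Single dst arrays set the direction of this difference. Without dst replicate 2 the log2 difference of HKT1;5 was 0.51, and without dst replicate 3 it was -1.02, with adjusted p of 0.916 and 0.775 in limma. Leaving out dst replicate 1 gave -0.47. Leaving out a wild-type array moved the value less, to between -0.45 and -0.25. An offset of 16 added to each signal before log2, which damps differences between dim values, gave -0.16. The interval of the HKT1;5 difference included 0 in each of the 15 alternative settings.

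**Figure D2:**
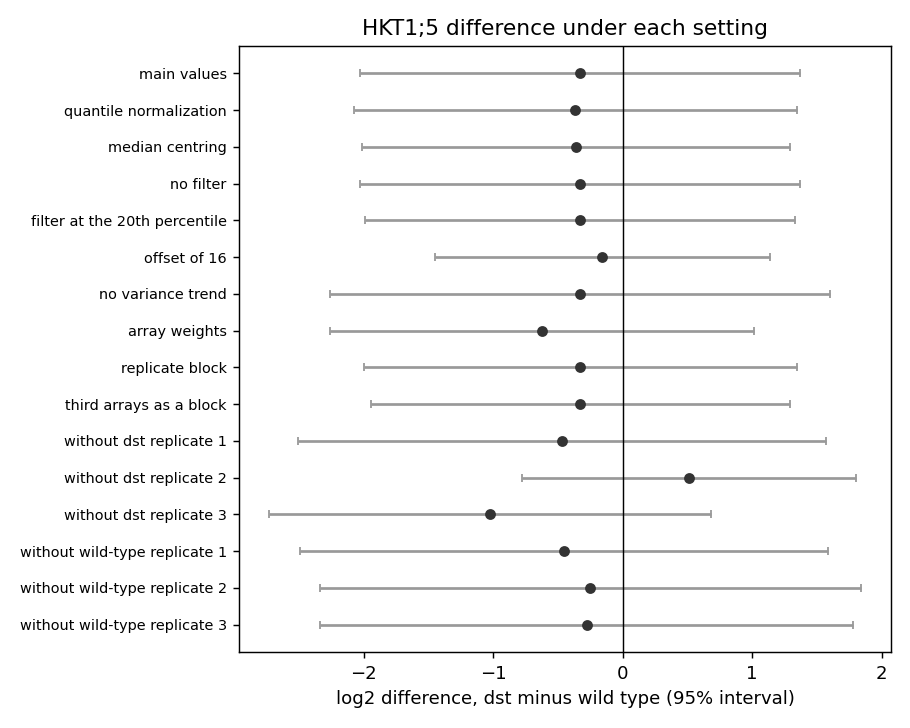
Log2 difference of HKT1;5, dst minus wild type, under the main values and 15 alternative settings (points), with 95% intervals from limma (bars), taken over all rice probe sets except for the filter at the 20th percentile. The points run from -1.02 without dst replicate 3 to 0.51 without dst replicate 2, and every interval includes 0.

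The array-by-array pattern of HKT1;5 was also set beside those of 2757 tested probe sets of other genes that carry a name, by the mean absolute distance of the log2 values after each probe set was centred on its own mean over the 6 arrays. The nearest were BGLU3, OsTBL15 and ARGOS, at distances of 0.35, 0.35 and 0.36, where the median candidate lay at 0.68. BGLU3 read 61.8, 28.6 and 151.2 in dst, against 98.9, 107.0 and 71.5 in the wild type. Like HKT1;5 it was lowest on dst array 2 and highest on dst array 3. OsTBL15 and ARGOS had the same lowest and highest array, with signals of 26.7 to 192.9 and of 80.3 to 328.9 in dst. These 3 were picked from many candidates over 6 arrays, and nothing about a shared role follows from it.

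In gene order, the 20 nearest genes with a probe set, 10 on each side of HKT1;5, were read as its surroundings, a choice made after values had been seen. Of these 15 were tested and none passed in limma, where 0.924% of all 34316 tested probe sets did. An unadjusted p under 0.05 was found for 2 of the 15, against 10.5% of all tested probe sets, and a higher mean in dst for 8 of the 15, against 52.8%. The log2 differences of these neighbours ran from -0.61 to 0.54, with a median of 0.01, where the median of all tested probe sets was 0.02. These counts lay near those of the whole array.

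HKT1;5 works beside other cation transporters and their regulators, which were read from lists of gene names with 1 probe set for each gene. A list of proton pump names matched OSA15 alone, which the gene table also names PSAG, a photosystem I subunit, so no proton pump was measured under these names and OSA15 is left out of the counts that follow. Of 57 tested genes in the other 3 lists none passed in limma, where 0.924% of all tested probe sets did. An unadjusted p under 0.05 was found for 3 of the 57, against 10.5% of all, and a higher mean in dst for 23, against 52.8%. The list of CIPK kinases and CBL calcium sensors, the families of the SOS pathway, had 29 tested genes of 39 named, with a median log2 difference of -0.04. Its smallest p was that of CIPK1, at -0.49 ± 0.19 with an adjusted p of 0.401, and at -0.31 without dst replicate 3. The rice counterparts of the kinase SOS2 and the sensor SOS3, which act on SOS1, are CIPK24 and CBL4. CIPK24 measured 882, 978 and 854 in dst, against 641, 774 and 940 in the wild type, and CBL4 387, 432 and 678 in dst, against 445, 658 and 505 in the wild type. Both overlapped between the groups, with log2 differences of 0.22 ± 0.16 and -0.13 ± 0.24. Both values moved when single arrays were left out, that of CIPK24 without a change of sign. CIPK24 measured 0.08 without wild-type replicate 1 and 0.36 without wild-type replicate 3, and CBL4 lay between -0.37 without dst replicate 3 and 0.03 without dst replicate 1. They were singled out after their values had been seen. Potassium transporters and channels had 24 tested genes of 32 named and a median of -0.01, with the smallest p for HAK17, of the HAK potassium transporter family, at -0.66 ± 0.18 and an adjusted p of 0.180. The 4 tested CAX cation exchanger genes had a median of -0.13, with CAX1b at -0.63 ± 0.33 and an adjusted p of 0.559. OSA15 measured -0.51 ± 0.11 with an unadjusted p of 0.00149 and an adjusted p of 0.0977 in limma. That value is from the brighter of its 2 probe sets, and the median over both was -0.37. OSA15 passed with array weights, at an adjusted p of 0.0339, with the replicate block, at 0.0230, and with the third arrays as a block, at 0.0458. These settings also called more probe sets across the array, 532, 463 and 606, against 317 in the main fit. In the other 12 alternatives OSA15 did not pass, with an adjusted p in limma of up to 0.384, without dst replicate 1.

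**Figure D3:**
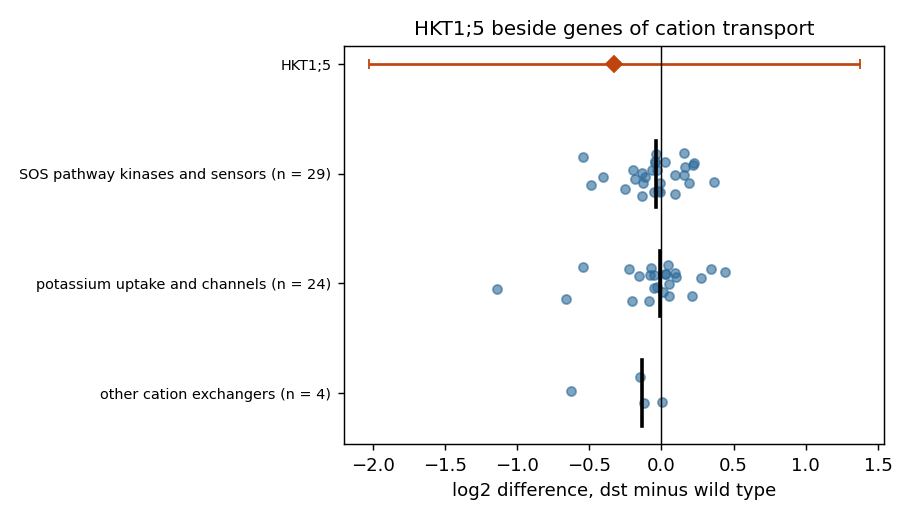
Log2 difference, dst minus wild type, of HKT1;5 (diamond, with its 95% interval of -2.03 to 1.37 from the fit over all rice probe sets) and of the tested genes of 3 lists (circles, 1 for each gene, spread vertically for sight), with list medians as black bars. The list medians lie between -0.13 and -0.01, and no gene shown passed the test.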

How the data were processed

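Total RNA of shoots was obtained with Trizol and carried a biotin label for Affymetrix arrays, per the labels' protocols. The deposited values are linear intensities, 1 signal for each probe set and array. Their software and scaling are not given in the sources, but the mean after trimming 2% at either end was 500.1 on each array. Values under 1 were set to 1 before log2, without the 187 control or reporter probe sets. Array medians, 117.6 to 140.9, lay within 0.5 log2, so no further normalization was made. Probe sets under the 40th percentile of mean log2 signal were removed. The dst and wild-type arrays were compared in R 4.3.3 with limma 3.58.1 (eBayes with a mean-variance trend, Benjamini-Hochberg, threshold 0.05) without covariates, and adjusted p-values come from it. Since HKT1;5 lies under the filter, its SE, interval and p come from the fit with no filter. The procedure was also run on simulated data with independent normal noise, which cannot show how it handles outlying arrays or a batch. All 6 arrays limit the precision, and no depth applies.

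Gene names come from the platform annotation and from the RefSeq table of assembly ASM3414082v1, used for names and order only. Of the rice probe sets, 22436 have 1 gene, 95 several and 34663 none there. Each member gene was to be named, and from each list the genes past the threshold or else the one with the smallest p. The members and lists were chosen with earlier results of these data known. The Zhonghua11 and dst samples are labelled biological replicates. Alternatives covered normalization, filter, offset, variance model, array weights, blocks, arrays left out, threshold and probe sets per gene.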

Additional observations from a re-analysis of the deposited data

How the results depend on the processing

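The difference of HKT1;5 was below 0 in 14 of 15 alternatives and above 0 without dst replicate 2. Leaving out single arrays moved it between -1.02 and 0.51. Its adjusted p lay between 0.775 and 0.976, its unadjusted p between 0.207 and 0.791, and its probe set was called in no setting. With quantile normalization the value was -0.37, with median centring -0.36 and with array weights -0.62. With the replicate block it was -0.33, with an adjusted p of 0.924. The labels do not say whether replicate numbers pair the samples, and the main fit used no pairing. Deviations from the group means correlated at 0.05, 0.05 and 0.20 for numbers 1, 2 and 3, which cannot settle it. The number of changed probe sets across the array was 317. It came to 80 when no variance trend was fitted, 532 under array weights, 606 with the third arrays as a block, 463 with the replicate block and 122 at an adjusted p under 0.01, and lay between 118 and 280 in the 6 fits that left out an array. The lower threshold can only reduce the count, the fits without an array have fewer samples, and for the other settings the cause was not tested. OSA15, the 1 gene of the pump names, passed with array weights, with the replicate block and with the third arrays as a block (count 1 in each), at -0.57, -0.51 and -0.51 and with adjusted p of 0.0339, 0.0230 and 0.0458. In its other 12 alternatives OSA15 did not pass. The counts of the other lists stayed at 0 in each of their 17 alternatives. CBL4 turned to 0.0328 without dst replicate 1 and 0.0293 without wild-type replicate 2. The SE, interval and p of HKT1;5 under alternatives other than the filters come from fits with no filter, a combination chosen after seeing the data. How far HKT1;5 stands above background is not known, as no detection calls were used.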
